A study of Mus musculus with 5 samples.

Results

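Simple epithelial keratins are the intermediate filament proteins of single-layered epithelia, and 4 of their genes are described here, *Krt8* and *Krt7* (type II) and *Krt18* and *Krt19* (type I). They were taken by symbol from the 31053 genes counted, which include 53 genes named Krt.

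A keratin filament forms only when a type I and a type II keratin pair, and *Krt8* with *Krt18* is the basic pair of simple epithelia. In the alveolus, surfactant-producing type 2 (AT2) cells are the progenitors of flat type 1 (AT1) cells, and a transitional state with high *Krt8* is known from injured lungs. *Krt7* and *Krt19* are further members of the same network that are abundant in the airway lining, and *Krt19* also in the mesothelium.

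Single-cell RNA-seq of adult mouse lung was used, in 5 libraries named by treatment, genotype and day. The 3 conditions at day 7 were LPS Itgb1 fl/fl, PBS Itgb1 iKO and LPS Itgb1 iKO, and the 2 at day 21 were LPS Itgb1 fl/fl and LPS Itgb1 iKO. LPS, a bacterial cell wall component that injures the lung, was given into the trachea once, and PBS is the saline given in its place. In Itgb1 iKO mice the floxed *Itgb1* gene, which encodes the β1 integrin subunit, was deleted in AT2 cells by a Cre switched on with doxycycline through an SP-C rtTA TetO-Cre system. Itgb1 fl/fl mice were littermates that carried the floxed alleles only, and both had reached adulthood after doxycycline in the drinking water. A PBS library of Itgb1 fl/fl mice was not analysed here, so the effect of LPS could be examined in Itgb1 iKO mice alone. Each library pooled the cells of mice told apart by hashtag antibodies. The cells were sorted as viable CD45- Ter119- cells, and at day 21 EPCAM-positive cells were added. In each library 3 hashtags were in use, and the cells of 1 hashtag are called a mouse below. The number of animals was read from the hashtags alone, and a hashtag need not mark a single animal. The mice of a condition shared a single library, so an effect of the library and of the condition cannot be told apart.

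The libraries held 3469 to 11234 barcodes and 9506636 to 31227849 UMIs, where a UMI is a single captured transcript. Of these barcodes, 29500 cells had at least 700 genes and 0.1 to 15% mitochondrial UMIs, at a median of 2219 to 5330 UMIs per cell in a library. Between 50.3% and 78.7% of the cells of a library carried 1 hashtag, and only these entered values per mouse. The pairs of libraries shared 24 to 164 barcodes, 0.692 to 1.69% of the smaller one. AT2 cells were those with *Sftpc* at 5% of UMIs or more, a UMI of *Epcam* and none of *Cdh5*, *Pecam1* or *Col1a2*, which gave 119, 26, 355, 176 and 1240 cells in the order LPS Itgb1 fl/fl day 7, PBS Itgb1 iKO day 7, LPS Itgb1 iKO day 7, LPS Itgb1 fl/fl day 21 and LPS Itgb1 iKO day 21. All 8 further AT2 genes examined, among them *Lamp3*, *Abca3* and *Napsa*, were found in the gate of every library, the leukocyte gene *Ptprc* was at 0 in each, and *S100a8* and *Cd68* stayed under 10 CPM. Levels are given in CPM, the UMIs of a gene per 1000000 UMIs summed over the cells named. A UMI marks the 5′ end of a transcript whatever its length, so CPM values count molecules, but capture may differ between genes.

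*Itgb1* was examined first. In AT2 cells its level was 258, 235 and 305 CPM in the 3 LPS Itgb1 fl/fl mice at day 7, 214, 149 and 193 CPM in the LPS Itgb1 iKO mice and 91.5 CPM in the only PBS Itgb1 iKO mouse with at least 5 AT2 cells. At day 21 it was 347, 315 and 370 CPM in Itgb1 fl/fl and 143, 180 and 144 CPM in Itgb1 iKO mice. The genotypes did not overlap at either day. With 3 against 3 mice such a separation has a 2-sided exact permutation p of 0.1, the smallest possible. The share of all genes that separate so was not counted, here or below. The log2 difference was -0.65 (SE 0.180, adjusted p = 0.0771) at day 7 and -1.27 (SE 0.119, adjusted p = 2.90e-07) at day 21, by edgeR's quasi-likelihood test on UMIs summed per mouse with Benjamini-Hochberg adjustment over all genes tested. Every adjusted p below is from this test unless another is named, and a gene was called at an adjusted p under 0.05. UMIs at the 5′ end may come from transcripts of a deleted allele, so the remaining *Itgb1* level does not measure the share of cells that escaped deletion. At day 7 all 3 LPS Itgb1 fl/fl mice were female by *Xist* (291 to 316 CPM, Y-linked genes at 0) and all 3 LPS Itgb1 iKO mice male (Y-linked genes 147 to 157 CPM), so genotype and sex cannot be told apart there. At day 21 sex also largely followed genotype. Mice 2 and 3 of LPS Itgb1 fl/fl held *Xist* at 244 and 212 CPM with Y-linked genes under 2 CPM, and mice 2 and 3 of LPS Itgb1 iKO held Y-linked genes at 78.8 and 105 CPM, while mouse 1 of LPS Itgb1 iKO had more *Xist* (141 CPM) than Y-linked genes (9.54 CPM). The cells tagged as mouse 1 of the LPS Itgb1 fl/fl day 21 library held both, *Xist* at 90.3 and Y-linked genes at 82.9 CPM. Without that mouse the *Itgb1* difference at day 21 was -1.26 (adjusted p = 1.61e-06), and keratin shares and ratios of that day are given without it below, a choice made after seeing the data.

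The sequences in front of the genes are shown because *Krt8* and *Krt18*, which pair in 1 filament, and *Krt7* lie on the same chromosome, where shared and separate motifs can be read side by side. In the GENCODE annotation of GRCm38, *Krt8* (ENSMUSG00000049382) lies at chr15:101996698-102004482 on the minus strand and *Krt18* (ENSMUSG00000023043) at chr15:102028180-102032027 on the plus strand, so the pair stands back to back with 23.7 kb between their starts. *Krt7* (ENSMUSG00000023039, chr15:101411043-101430313, plus strand) is on the same chromosome, and *Krt19* (ENSMUSG00000020911, chr11:100140810-100148665, minus strand) is on another. The RefSeq promoters (GRCm38.p6, 250 bases before the start to 50 after it, 5′ to 3′) are printed for 3 genes with motif matches in capitals, *Krt8* at chr15:102004293-102004592 (minus strand), *Krt18* at chr15:102027966-102028265 (plus strand) and *Krt7* at chr15:101412153-101412452 (plus strand), whose start lies inside the GENCODE gene.
Krt8: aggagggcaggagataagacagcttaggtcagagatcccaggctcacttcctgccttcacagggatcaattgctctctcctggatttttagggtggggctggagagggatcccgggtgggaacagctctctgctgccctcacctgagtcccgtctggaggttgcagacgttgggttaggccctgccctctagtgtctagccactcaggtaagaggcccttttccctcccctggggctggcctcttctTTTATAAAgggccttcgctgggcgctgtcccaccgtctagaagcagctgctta
Krt18: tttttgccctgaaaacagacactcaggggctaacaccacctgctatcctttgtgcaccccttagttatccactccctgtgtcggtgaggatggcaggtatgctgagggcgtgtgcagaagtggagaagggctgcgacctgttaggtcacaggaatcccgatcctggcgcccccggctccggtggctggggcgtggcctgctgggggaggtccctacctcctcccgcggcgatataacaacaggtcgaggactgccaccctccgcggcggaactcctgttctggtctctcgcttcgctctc
Krt7: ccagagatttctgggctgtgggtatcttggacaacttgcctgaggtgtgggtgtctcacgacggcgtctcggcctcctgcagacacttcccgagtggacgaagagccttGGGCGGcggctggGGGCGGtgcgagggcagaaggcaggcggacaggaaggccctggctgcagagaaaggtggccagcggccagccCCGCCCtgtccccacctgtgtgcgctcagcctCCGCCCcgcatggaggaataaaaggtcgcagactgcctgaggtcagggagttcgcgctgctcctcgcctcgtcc
Both strands were searched for TATAAA (the TATA box), GGGCGG (a GC box), TGANTCA (the AP-1 element), GGAATG (a TEAD element) and CCAAT (the CCAAT box). The *Krt8* window holds TATAAA on both strands, at 3 and 1 bases before the start, as overlapping matches, and 13.6% of 32851 promoters hold this motif. The *Krt7* window holds GGGCGG 4 times, at 141, 128, 56 and 24 bases before the start, the last pair on the opposite strand, and 35.7% of promoters hold it at least once. The *Krt18* window holds none of the 5 motifs. The AP-1, TEAD and CCAAT letters, held by 7.81%, 14.7% and 37.4% of promoters, are in none of the 3 windows. These matches describe letters in a window and not binding.

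The 4 keratins were found in every epithelial class and were near background in endothelial cells and fibroblasts, and the classes differed in which keratin was highest. In AT2 cells of each library the order was *Krt18*, *Krt8*, *Krt7* and *Krt19*, apart from the near tie of *Krt7* and *Krt19* in LPS Itgb1 fl/fl at day 21. For example, LPS Itgb1 iKO day 7 AT2 cells held *Krt18* at 689.6 CPM (95% exact Poisson interval 659 to 721), *Krt8* at 342 CPM (95% exact Poisson interval 321 to 365), *Krt7* at 219 CPM (95% exact Poisson interval 202 to 237) and *Krt19* at 64.2 CPM (95% exact Poisson interval 55.2 to 74.2). These intervals cover counting error only. Over the 3 mice of each LPS group, neighbours in this order did not overlap, except *Krt7* and *Krt19* in LPS Itgb1 fl/fl at day 21.

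Ciliated cells, taken by 4 or more UMIs of *Foxj1*, *Dynlrb2* and *Ccdc153*, were numerous in the LPS Itgb1 fl/fl day 7 library alone (162 of 214 cells). There they held *Krt8* at 851 CPM, *Krt18* at 737 CPM, *Krt19* at 538 CPM and *Krt7* at 273 CPM, so *Krt8* led and *Krt19* exceeded *Krt7*. The 3 mice of that library held *Krt8* at 1219, 747 and 809 CPM and *Krt19* at 905, 346 and 552 CPM. All 3 lay above the AT2 cells of the same mice for both genes. The day 21 LPS Itgb1 iKO cells of the ciliated gate (10 cells) held *Sftpc* at 167050 CPM and low ciliated genes, which goes against their name, and they enter no test. In LPS Itgb1 iKO at day 7 the gate held *Sftpc* at 49619 CPM, against 3118 CPM in LPS Itgb1 fl/fl.

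Within mice, *Krt8* and *Krt19* were higher in ciliated than in AT2 cells and *Krt18* and *Krt7* were not called. In 5 mice with at least 5 cells of both classes (3 LPS Itgb1 fl/fl and 2 LPS Itgb1 iKO at day 7, mouse as a block), the log2 difference of ciliated over AT2 cells was 1.23 (SE 0.195, adjusted p = 3.17e-06) for *Krt8* and 2.87 (SE 0.233, adjusted p = 3.42e-12) for *Krt19*, a 7.32-fold higher level. It was -0.02 (SE 0.216, adjusted p = 0.953) for *Krt18* and 0.17 (SE 0.22, adjusted p = 0.572) for *Krt7*. Ranges of 2 SE each way ran from -0.45 to 0.41 and from -0.27 to 0.61. The classes differed widely, with 24.3% of 9465 tested genes higher and 22.1% lower in ciliated cells, so 2 of 4 keratins called higher is to be read against that. In the 3 LPS Itgb1 fl/fl mice alone the differences were 1.49 for *Krt8*, 0.43 for *Krt18* (adjusted p = 0.0882), 0.86 for *Krt7* (adjusted p = 0.000834) and 3.74 for *Krt19*, so *Krt7* was called higher when the 2 mice with the *Sftpc*-rich ciliated gate were left out. Of other keratins, 4 were tested. *Krt23*, a type I keratin that AT2 cells held at 71.6 to 183 CPM in the mean over mice, was called lower in ciliated cells (log2 difference -3.77). *Krt1* was called higher, but it was at 0 in AT2 cells of the LPS mice at day 7, so it could be called in that direction only.

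The plot of levels by class shows the same for the scarcer classes. Cells with at least 4 UMIs of AT1 genes outside the AT2 gate (15, 25 and 4 cells in LPS Itgb1 fl/fl day 7, LPS Itgb1 iKO day 7 and LPS Itgb1 iKO day 21) held the most *Krt18* and *Krt7*. Their *Krt18* was 4036 CPM (95% exact Poisson interval 3676 to 4422) in LPS Itgb1 fl/fl and 1975 CPM (95% exact Poisson interval 1756 to 2213) in LPS Itgb1 iKO at day 7, and their *Krt7* was 1992 CPM (95% exact Poisson interval 1741 to 2268) and 1248 CPM (95% exact Poisson interval 1075 to 1440). With so few cells no test over mice was made. Secretory airway cells held all 4 genes at 378 to 864 CPM in the day 7 LPS libraries, with 10 and 15 cells. In mesothelial cells *Krt19* led, at 774 CPM in LPS Itgb1 fl/fl and 741 CPM in LPS Itgb1 iKO at day 7, and 4 cells of the PBS library held 81 UMIs of it, 4368 CPM (95% exact Poisson interval 3469 to 5429).

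**Figure D1:**
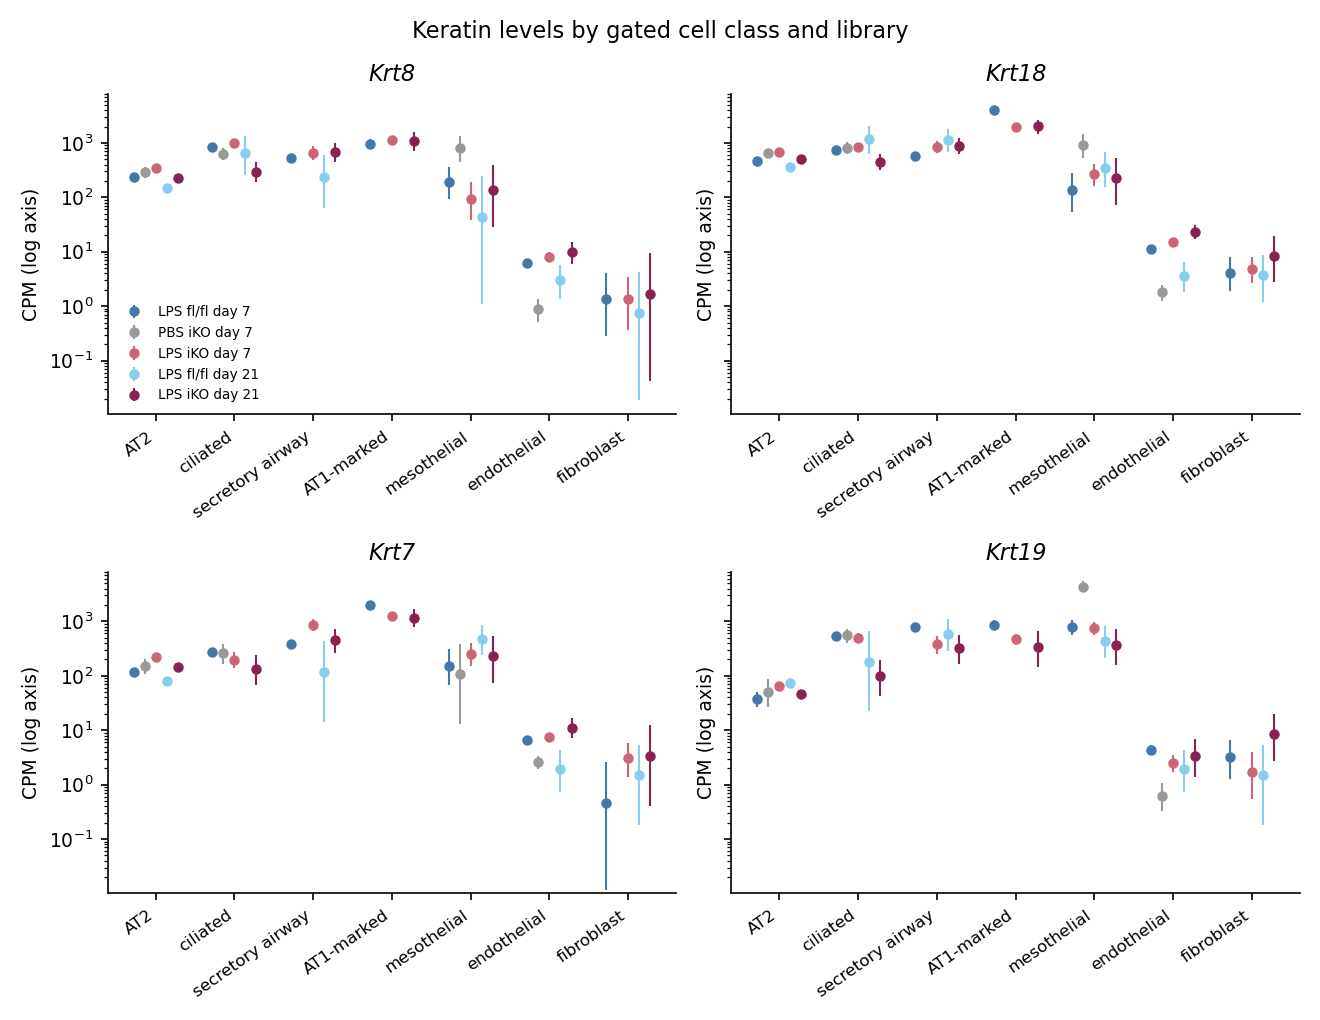
Level of each keratin (CPM, log axis) by cell class and library, as points with 95% exact Poisson intervals on the summed UMIs, with points at 0 left out. Epithelial and mesothelial classes sit far above endothelial cells and fibroblasts, and the AT1-marked cells hold the highest *Krt18* and *Krt7*.

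Endothelial cells were taken as a background for these keratins, and whether their level came from free RNA alone was not tested. They held each gene at 0.628 to 23.3 CPM and fibroblasts at 0 to 8.48 CPM, while *Sftpc* reached 730 to 15330 CPM in endothelial cells. In the PBS library endothelial *Krt7* (2.61 CPM) exceeded *Krt18* (1.79 CPM). In LPS Itgb1 iKO at day 7, 13 of 4777 endothelial cells held 3 or 4 of the keratins with all UMIs counted. In 13 mice the endothelial level was lower than the AT2 level by log2 differences of -6.05 (*Krt8*), -6.21 (*Krt18*), -5.37 (*Krt7*) and -4.71 (*Krt19*), with adjusted p of 3.44e-20 or less, where 32% of 10696 tested genes were lower. Between genotypes at day 7, the endothelial level of no keratin was called different (adjusted p 0.378 to 0.805), where 2.1% of 11657 tested genes were called. At day 21 the genes were too low there to be tested. Their mean endothelial level over mice was higher in Itgb1 iKO than in Itgb1 fl/fl for *Krt18* (25.3 against 4.52 CPM), *Krt8* (9.97 against 5.06 CPM) and *Krt7* (5.78 against 1.82 CPM). It was lower for *Krt19* (1.99 against 2.27 CPM). Endothelial *Sftpc* was 15330 CPM in that Itgb1 iKO library and 2928 CPM in Itgb1 fl/fl.

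Because the classes were present in different numbers, the same gene came from different cells in each library. AT2 cells held 10.5% of the *Krt8* UMIs of LPS Itgb1 fl/fl at day 7, 27.6% in PBS Itgb1 iKO, 39% in LPS Itgb1 iKO at day 7, and 66.3% and 75.6% in Itgb1 fl/fl and Itgb1 iKO at day 21. In LPS Itgb1 fl/fl at day 7, ciliated cells held 45.8% of the *Krt8* UMIs and 46% of the *Krt19* UMIs. In the PBS library 4 mesothelial cells held 39.7% of all *Krt19* UMIs. Cells in no gate held 17.8 to 47.9% of a keratin's UMIs. A keratin level summed over a whole library is thus a mixture, and the conditions were compared inside the AT2 gate, with endothelial cells as background.

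At day 7 after LPS, *Krt7* was higher in Itgb1 iKO than in Itgb1 fl/fl AT2 cells, and *Krt18*, *Krt19* and *Krt8* had higher means without passing the test. *Krt7* was 86.6, 43.2 and 176 CPM in the 3 LPS Itgb1 fl/fl mice (54, 20 and 17 AT2 cells) and 241, 223 and 249 CPM in the LPS Itgb1 iKO mice (40, 102 and 58 cells). The groups did not overlap (2-sided exact permutation p = 0.1, the smallest possible), and the Itgb1 iKO mice lay close together while the Itgb1 fl/fl mice were spread. Means were 102 ± 67.8 CPM (SD, n = 3) and 238 ± 13.2 CPM (SD, n = 3). The log2 difference was 1.12 (SE 0.245, adjusted p = 0.0155), a 2.18-fold higher level, where 0.765% of 5886 tested genes were called higher.

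*Krt18* was 433, 370.5 and 381 CPM in LPS Itgb1 fl/fl and 583, 768 and 574 CPM in LPS Itgb1 iKO mice. *Krt8*, its partner, was 197, 191 and 309 CPM and 301, 390.1 and 265 CPM. *Krt19* was 35.4, 18.5 and 42.8 CPM and 54.1, 79.2 and 56.1 CPM. The groups did not overlap for *Krt18* and *Krt19* (2-sided exact permutation p = 0.1 each, the smallest possible). The share of all genes that separate so was not counted, and *Krt19* in LPS Itgb1 fl/fl rested on 18, 3 and 9 UMIs. The groups overlapped for *Krt8* (2-sided exact permutation p = 0.3), where mouse 3 of LPS Itgb1 fl/fl exceeded mice 1 and 3 of LPS Itgb1 iKO. The log2 differences were 0.60 (SE 0.176, adjusted p = 0.103) for *Krt18*, 0.40 (SE 0.199, adjusted p = 0.456) for *Krt8* and 0.85 (SE 0.308, adjusted p = 0.219) for *Krt19*, none of them called.

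**Figure D2:**
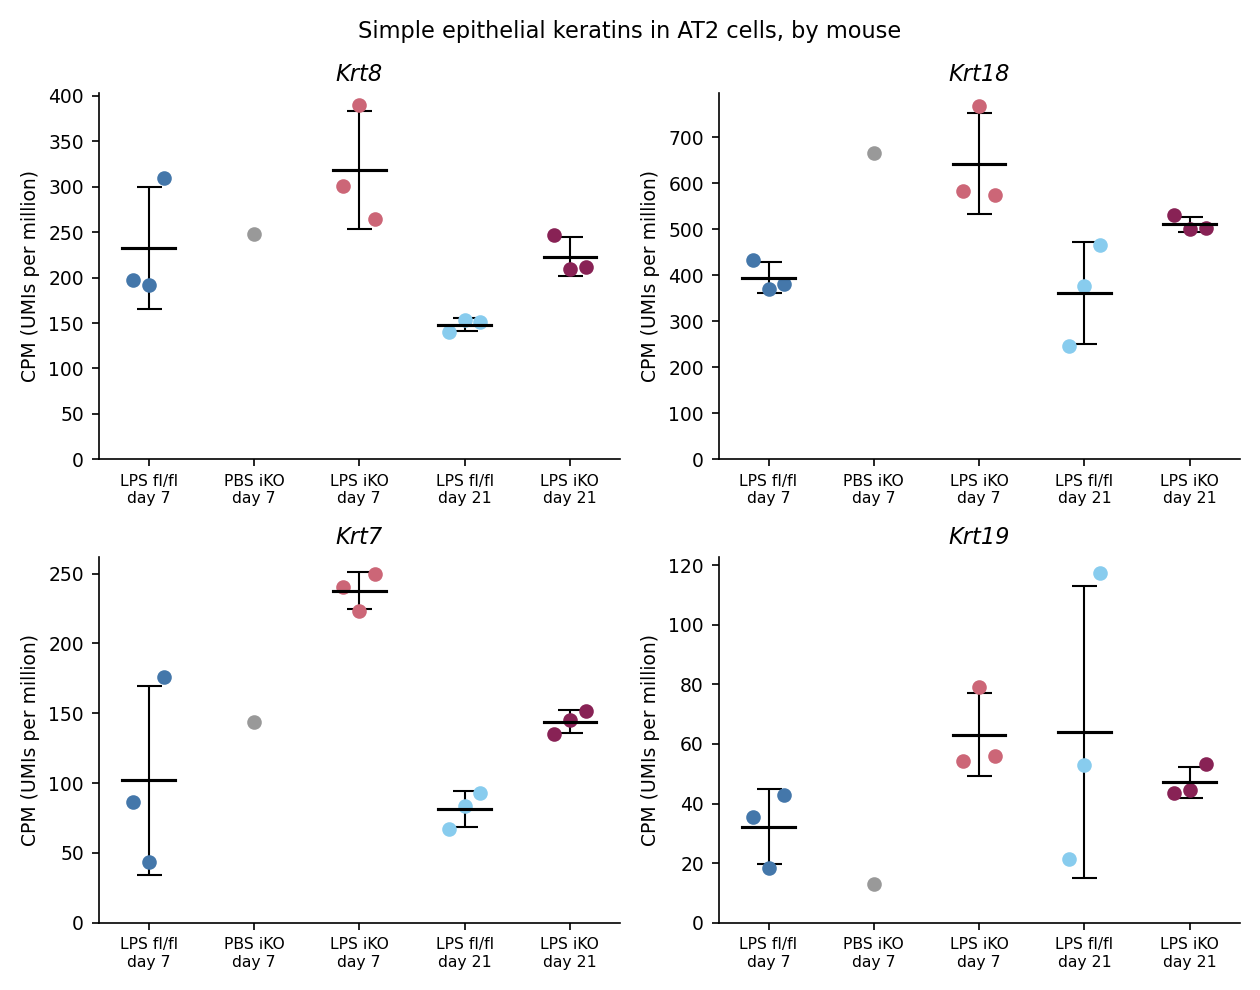
Level of each keratin (CPM) in AT2 cells of each mouse with at least 5 such cells, as points, with the mean (long bar) and SD (short bars) of each group of 3 mice. *Krt7* and *Krt18* of LPS Itgb1 iKO mice lie above those of LPS Itgb1 fl/fl mice of the same day without overlap, *Krt8* does so at day 21, and *Krt19* has a single high Itgb1 fl/fl mouse at day 21.

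The *Krt7* call at day 7 depended on the mice. It was lost without mouse 1 (adjusted p = 0.142) or mouse 2 (0.071) of LPS Itgb1 fl/fl and without mouse 1 (0.0674) or mouse 3 (0.0636) of LPS Itgb1 iKO, with log2 differences of 0.92 to 1.56 over all mice left out in turn, by edgeR's quasi-likelihood test. It was lost with DESeq2 (adjusted p = 0.139) and with a stricter hashtag threshold of 8 times background (adjusted p = 0.222). With the endothelial level of the same mice subtracted, the log2 ratio of group means was 1.26 for *Krt7*, against 1.22 before.

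In Itgb1 iKO mice, LPS and PBS could be compared at day 7 with 1 PBS mouse only, and no keratin was called. PBS Itgb1 iKO mouse 3 (9 AT2 cells) held *Krt8* at 248 CPM, *Krt18* at 666 CPM, *Krt7* at 144 CPM and *Krt19* at 13.1 CPM. Its *Krt18* lay inside the range of the LPS Itgb1 iKO mice and its other 3 keratins below it. Its *Krt19* level was 1 UMI, under a floor of 3 counts. The log2 differences of LPS over PBS were 0.29 (SE 0.396, adjusted p = 0.881), -0.13 (SE 0.285, adjusted p = 0.929), 0.63 (SE 0.514, adjusted p = 0.745) and 2.22 (SE 1.06, adjusted p = 0.593) in that order of genes, where 0.204% of tested genes were called. This comparison shares the LPS Itgb1 iKO mice with that of the genotypes. The lone PBS mouse was assumed to vary like the others, and its standard errors reach 1.06. Over the library, 26 PBS AT2 cells held *Krt18* at 646 CPM (95% exact Poisson interval 552 to 753) and *Krt8* at 292 CPM (95% exact Poisson interval 229.7 to 366), above the LPS Itgb1 fl/fl library and below LPS Itgb1 iKO, with no test. These cells held 13 *Krt19* UMIs, 50.6 CPM (95% exact Poisson interval 27 to 86.6), beside 64.2 CPM in the LPS Itgb1 iKO library.

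At day 21 *Krt8* and *Krt7*, the 2 type II members, were higher in Itgb1 iKO AT2 cells, *Krt18* had a higher mean, and *Krt19* a lower one. *Krt8* was 140.0, 153 and 151 CPM in LPS Itgb1 fl/fl (32, 33 and 68 AT2 cells) and 247, 209.8 and 212 CPM in LPS Itgb1 iKO mice (260, 248 and 234 cells). *Krt7* was 67.3, 83.5 and 93.2 CPM and 135, 145 and 151 CPM. Neither gene overlapped between the groups (2-sided exact permutation p = 0.1 each, the smallest possible), and the share of all genes that separate so was not counted. The log2 difference was 0.47 (SE 0.128, adjusted p = 0.0386) for *Krt8* and 0.67 (SE 0.147, adjusted p = 0.00734) for *Krt7*, 1.39-fold and 1.60-fold higher levels, where 1.31% of 8729 tested genes were called higher.

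*Krt18* was 245, 376 and 465 CPM in LPS Itgb1 fl/fl and 529.9, 501 and 501 CPM in LPS Itgb1 iKO mice, also without overlap (2-sided exact permutation p = 0.1). *Krt19* was 21.5, 52.9 and 117 CPM and 43.6, 44.6 and 53.1 CPM, so the Itgb1 iKO mice lay within the wide range of the Itgb1 fl/fl mice. The log2 differences were 0.35 (SE 0.137, adjusted p = 0.197) and -0.77 (SE 0.273, adjusted p = 0.136), and neither was called, where 2.18% of tested genes were called lower. In mouse 3 of LPS Itgb1 fl/fl, 27 of its 87 *Krt19* UMIs (31%) came from 1 of 68 cells, and without that cell its level was 83 CPM in place of 117 CPM.

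Single mice decided several of these calls, by edgeR's quasi-likelihood test. Without mouse 1 of LPS Itgb1 fl/fl, whose cells held genes of both sexes, *Krt8* had an adjusted p of 0.116 (log2 difference 0.45), *Krt7* of 0.0525 (0.58), *Krt18* of 0.598 (0.16) and *Krt19* of 0.00458 (-1.09). *Krt8* was also lost without mouse 2 (adjusted p = 0.0508) or 3 (0.146) of LPS Itgb1 fl/fl or mouse 1 of LPS Itgb1 iKO (0.122). Without mouse 3 of LPS Itgb1 fl/fl the *Krt19* difference turned to 0.23 (adjusted p = 0.82) and *Krt18* was called (0.60, adjusted p = 0.0306). *Krt7* kept its call in 5 of 6 such fits. With the endothelial level of the same mice subtracted, the log2 ratio of group means at day 21 was 0.574 for *Krt8*, against 0.590 before. It was 0.442 for *Krt18* (0.497 before), 0.797 for *Krt7* (0.824 before) and -0.451 for *Krt19* (-0.441 before).

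Whether the genotype difference changed between the days was tested directly, and no keratin was called. The log2 difference at day 21 less that at day 7 was 0.06 (SE 0.236, adjusted p = 0.958) for *Krt8*, -0.24 (SE 0.236, adjusted p = 0.775) for *Krt18*, -0.46 (SE 0.292, adjusted p = 0.594) for *Krt7* and -1.61 (SE 0.492, adjusted p = 0.184) for *Krt19*, where 0.616% of 6329 tested genes were called. The *Krt8* range of 2 SE each way ran from -0.41 to 0.53. *Krt19* was higher in Itgb1 iKO at day 7 and lower at day 21 in the mean, and its test passed the threshold without mouse 1 of LPS Itgb1 fl/fl at day 21 (-1.95, adjusted p = 0.0215) while the value was -0.67 without mouse 3. The sort differed between the days, and the comparisons at each day do not share mice.

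**Figure D3:**
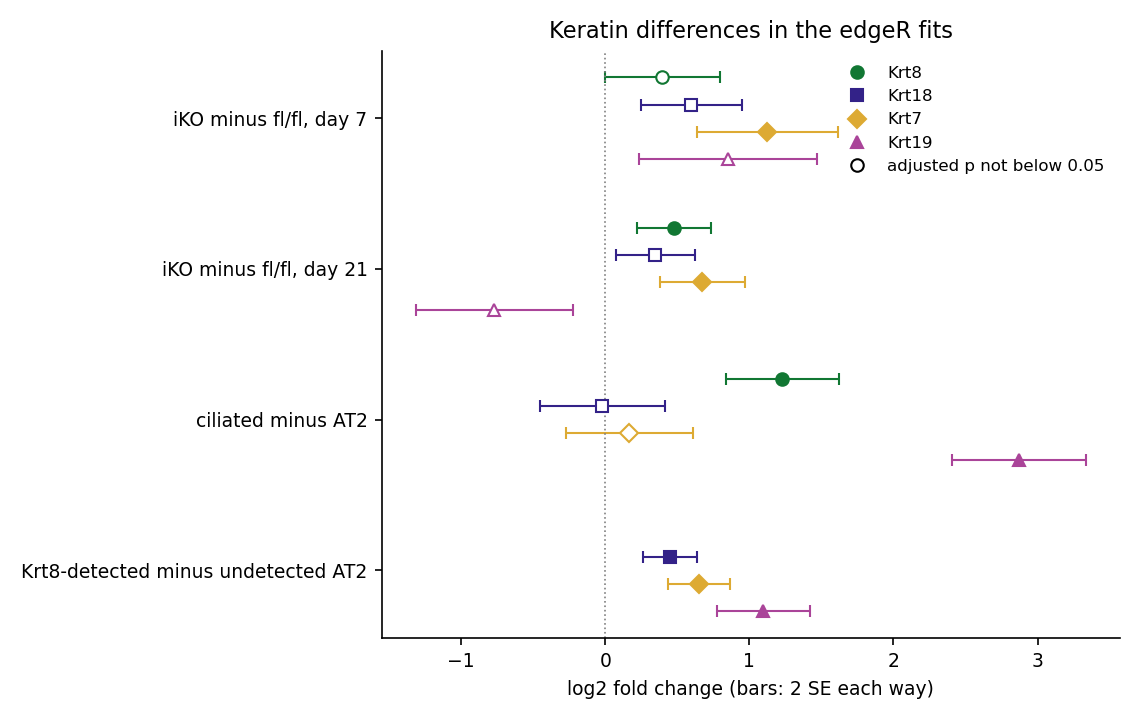
Log2 fold change of each keratin in the edgeR fits, as points with bars of 2 SE each way, filled where the adjusted p was under 0.05. *Krt7* is filled in both genotype comparisons, *Krt8* at day 21 only, and *Krt19* has the largest difference between ciliated and AT2 cells.

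The share of AT2 cells with a keratin UMI was compared after each cell was thinned to 2000 UMIs, since deeper cells yield more. The Itgb1 iKO and Itgb1 fl/fl mice were most apart for *Krt7*. At day 7, 16.7, 5.56 and 11.8% of AT2 cells of the LPS Itgb1 fl/fl mice and 37.5, 33 and 28.6% of the LPS Itgb1 iKO mice had a *Krt7* UMI, and at day 21 the shares were 15.6, 6.06 and 13.2% against 20, 26.2 and 24.1%. At neither day did the genotypes overlap. The 2-sided exact permutation test over mice gave p = 0.1 at both days, the smallest that 3 against 3 mice allow, and 0.32 after adjustment over 8 tests. *Krt8* had a UMI in 29.8% ± 10.1 of LPS Itgb1 fl/fl and 41.6% ± 8.24 of LPS Itgb1 iKO cells at day 7 (SD, n = 3, exact permutation p = 0.2) and in 25.7% ± 4.26 and 34.1% ± 5.48 at day 21 (SD, n = 3, exact permutation p = 0.2). *Krt18* and *Krt19* gave exact permutation p of 0.2 to 0.8 (n = 3). Without mouse 1 of LPS Itgb1 fl/fl at day 21 the difference was 13.8 percentage points for *Krt7* and 6.49 for *Krt8* (3 against 2 mice, 2-sided exact permutation p = 0.1, the smallest possible, and 0.3).

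Per library, 49.6, 65.4, 61.7, 45.7 and 53.1% of thinned AT2 cells had a *Krt18* UMI in the order of the libraries given above, and 29.1, 42.3, 44.7, 25.1 and 33.5% a *Krt8* UMI. With all UMIs counted, the *Krt8* shares were 68.9, 80.8, 78, 66.5 and 72.7%. So most AT2 cells of each library held the gene at full depth (median 7615 to 11251 UMIs). Among thinned endothelial cells of LPS Itgb1 fl/fl at day 7, 0.952% held a *Krt8* and 1.4% a *Krt18* UMI, so the AT2 shares stood above that background.

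Counted over the 4 genes, thinned AT2 cells mostly showed 1 or 2 keratins. None of the 4 was found in 29.9% of LPS Itgb1 fl/fl, 7.69% of PBS Itgb1 iKO and 16.7% of LPS Itgb1 iKO cells at day 7, and in 31.4% and 25% of LPS Itgb1 fl/fl and LPS Itgb1 iKO cells at day 21. Cells with 3 or all 4 made up 5.98%, 11.5% and 17.3% at day 7 and 3.43% and 8.51% at day 21. The Itgb1 iKO libraries thus had the larger share of cells with several keratins at both days. These are shares of single libraries, without a test.

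**Figure D4:**
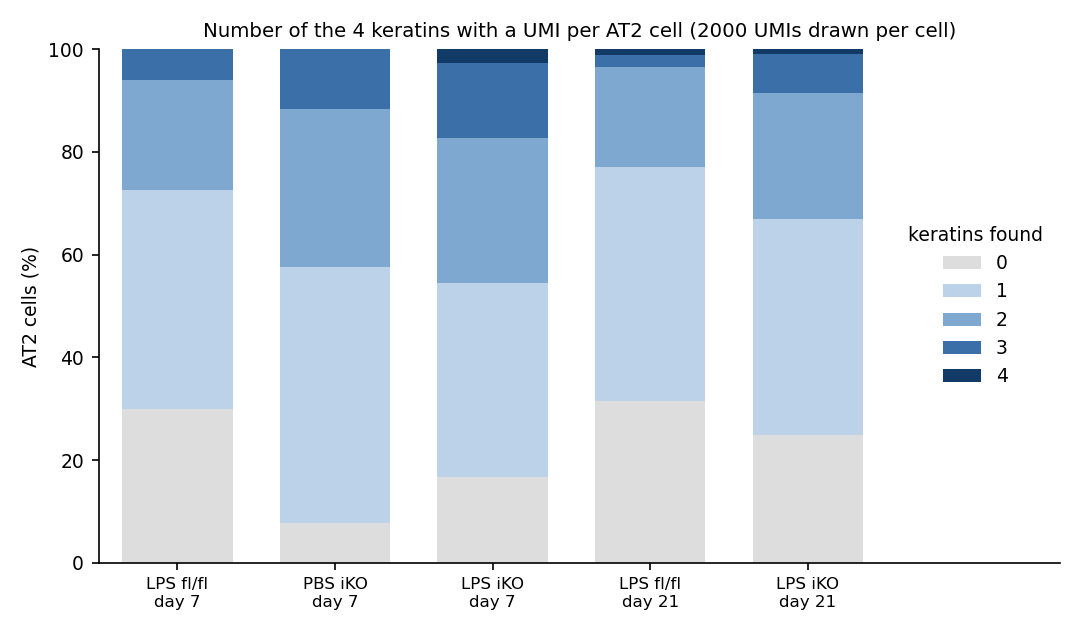
Share of AT2 cells (%) in which 0, 1, 2, 3 or 4 of the keratins had a UMI, by library, after 2000 UMIs were drawn from each cell. The dark segments for 3 and 4 keratins are larger in LPS Itgb1 iKO than in LPS Itgb1 fl/fl of the same day.

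*Krt8* and *Krt18* were found in the same thinned AT2 cell a little more often than the product of their shares gives. Both were found in 21 of 117 cells in LPS Itgb1 fl/fl at day 7, where 16.9 would be expected. In LPS Itgb1 iKO they were found in 103 of 347 cells at day 7 (95.6 expected) and 245 of 1234 at day 21 (219.8 expected), and in LPS Itgb1 fl/fl at day 21 in 22 of 175 (20.1 expected). The ratios were 1.08 to 1.25 in the 4 LPS libraries and 0.834 in the 26 PBS cells. For *Krt8* with *Krt19* the ratios were 1.03 to 1.56 in the LPS libraries, and for *Krt8* with *Krt7* 0.906 to 1.21, above 1 in both Itgb1 iKO libraries. Counts this sparse, which share a library and depth, do not order the pairs. Over mice, the *Krt8* and *Krt18* ratio was 1.33 in LPS Itgb1 fl/fl and 1.12 in LPS Itgb1 iKO at day 21 (n = 3, 2-sided exact permutation p = 0.3), and 1.14 and 1.12 without mouse 1 of LPS Itgb1 fl/fl, whose own ratio of 1.71 rested on 3 cells with both.

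The balance of type II to type I keratins was also examined, because a filament needs one of each. The UMIs of *Krt8* and *Krt7* over those of *Krt18* and *Krt19* were 0.785 ± 0.313 in LPS Itgb1 fl/fl and 0.796 ± 0.0649 in LPS Itgb1 iKO AT2 cells at day 7, and 0.583 ± 0.181 and 0.658 ± 0.00864 at day 21 (SD over 3 mice each). The genotypes differed by 0.0115 at day 7 (2-sided exact permutation p = 1, n = 3) and 0.0744 at day 21 (p = 0.7), less than the spread between the Itgb1 fl/fl mice. Without mouse 1 of LPS Itgb1 fl/fl at day 21, whose ratio was 0.778, the difference was 0.172 and the genotypes no longer overlapped (3 against 2 mice, 2-sided exact permutation p = 0.1, the smallest possible). *Krt8* over *Krt18* alone was 0.595 ± 0.191 in AT2 and 1.19 ± 0.0614 in ciliated cells of the 3 LPS Itgb1 fl/fl mice at day 7 (SD).

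Of the partners of the keratins, a single gene was called between the genotypes. The gene lists used here and below were chosen with earlier results of these data known. Their counts beside the share over all genes are a description and not independent support. Desmosome and linker genes anchor keratin filaments to the cell border, and of 13 tested at day 7 only *Eppk1* (epiplakin, a keratin linker) was called, higher in Itgb1 iKO (log2 difference 2.06, SE 0.530, adjusted p = 0.0483), a call that held in 1 of the 7 fits that left out a mouse, where 0.765% of 5886 tested genes were called higher and 0.883% lower. *Eppk1* passed the low-count filter through 2 LPS Itgb1 iKO mice alone, so it could enter the test only with a high level in that group. The median of the 13, *Eppk1* among them, was 0.51 beside -0.02 over all tested genes, so it does not measure a shift of the list. No linker of 15 was called at day 21 (median 0.33, all genes 0.00). Of other intermediate filaments, 0 of 4 tested, lamins among them, were called at each day. Of other keratins 0 of 2 at day 7 and 0 of 3 at day 21 were called by edgeR, and the basal and stratified keratins *Krt5*, *Krt14*, *Krt17*, *Krt4* and *Krt6a* were at 0 in AT2 cells of all mice with at least 5 cells.

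Genes of the *Krt8*-high alveolar intermediate state were examined next. Of 12 tested at day 7, *Ndnf*, *Areg* (amphiregulin, an EGF receptor ligand), *S100a6* and *Lgals3* (galectin-3) were called higher in Itgb1 iKO AT2 cells. Called lower were 0, beside 0.765% of all genes tested higher and 0.883% lower. The median of the 12, with *Cldn4* (a tight junction claudin) among them, was 0.68. Through *Cldn4*, for the reason given below, this median does not measure a shift of the list. *Ndnf* had a log2 difference of 1.69 (SE 0.239, adjusted p = 0.000156). *Cldn4* had 107 UMIs in Itgb1 iKO and 1 in Itgb1 fl/fl AT2 cells, a CPM ratio of 55.5 (95% exact interval 9.76 to 2210). This interval covers the counting error of pooled UMIs only and leaves out the spread between cells and mice. In LPS Itgb1 iKO mouse 3, 1 cell held 21 of 25 *Cldn4* UMIs. *Cldn4* was called too, but it passed the low-count filter through 2 LPS Itgb1 iKO mice alone. It could enter the test only with a high level in that group, so it adds nothing to the genes counted. *Ndnf* and *Cldn4* were called in all 7 fits that left out a mouse, *Areg* and *S100a6* in 4 and *Lgals3* in 2.

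Of 10 AT1 genes tested at day 7, *Ager* and *Emp2*, measured in all mice, were called higher in Itgb1 iKO and 0 were lower, beside 0.765% and 0.883% of all genes tested. *Ager*, the receptor that marks AT1 cells, differed by 0.86 (SE 0.177, adjusted p = 0.00986) and *Emp2*, a membrane protein, by 0.78 (SE 0.170, adjusted p = 0.0155). *Akap5* had 78 UMIs in Itgb1 iKO and 0 in Itgb1 fl/fl cells, at least 13.5-fold higher against a floor of 3 counts over the group, and *Pdpn* (podoplanin) 50 and 1, a ratio of 26 (4.45 to 1050). The UMIs were pooled here too, so this bound and interval leave out the spread between mice. Both genes were called too, but they passed the low-count filter through 2 LPS Itgb1 iKO mice alone, and neither was tested once the PBS mouse was left out, so they add nothing to the count. *Ager* and *Emp2* were called in 4 of 7 fits that left out a mouse. Of 10 transcription factors linked to simple keratins, 0 were called. In the comparison of LPS with the only PBS mouse no gene of these lists was called. Medians were 0.87 for the 12 intermediate and 1.32 for the 10 AT1 genes that passed the filter, beside 0.13 over all tested genes. They do not measure a shift of the lists, because *Akap5*, *Pdpn* and *Cldn4* passed the filter through LPS Itgb1 iKO mice alone.

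At day 21 the intermediate genes moved both ways. Of 15 tested, 5 were higher in Itgb1 iKO, *Hbegf* (log2 difference 1.10, SE 0.155, adjusted p = 0.000116), *Sfn* (1.02), *Tnfrsf12a* (0.98), *Ndnf* (0.77) and *Areg* (0.70), and 3 were lower, *S100a6* (-2.17, SE 0.248, adjusted p = 6.35e-06), *Lgals3* (-1.22, SE 0.180, adjusted p = 0.000188) and *Sprr1a* (-3.77), beside 1.31% of all genes tested higher and 2.18% lower. The list's median was 0.28. In mouse 3 of LPS Itgb1 fl/fl all 362 *Sprr1a* UMIs came from 1 cell, the same that held 27 of its *Krt19* UMIs, and without that mouse *Sprr1a* differed by 0.03 (adjusted p = 0.993). *Areg* and *Sfn* lost their call without that mouse (adjusted p = 0.0621 and 0.0506), and *Ndnf* lost it without mouse 1 (adjusted p = 0.0982) or 2 (0.0926) of LPS Itgb1 fl/fl or mouse 2 of LPS Itgb1 iKO (0.077). *Hbegf*, *Tnfrsf12a*, *S100a6* and *Lgals3* were called in all 6 fits. For *S100a6* 57 of 60 UMIs of mouse 1 of LPS Itgb1 fl/fl lay in 1 cell, and with the highest cell of each mouse left out its levels were 8.41, 71.1 and 148 CPM in LPS Itgb1 fl/fl and 31.6, 46.7 and 19.1 CPM in LPS Itgb1 iKO, so the genotypes overlapped. *Lgals3*, treated alike, was 72.9, 98.5 and 138 CPM and 56.5, 66.9 and 65.4 CPM, without overlap.

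Of the transcription factors, 3 of 10 tested at day 21 were higher in Itgb1 iKO and 0 lower, beside 1.31% and 2.18% of all genes tested. They were *Atf3* (1.23, SE 0.0949, adjusted p = 1.32e-08) and *Klf6* (0.72, SE 0.0985, adjusted p = 8.02e-05), both called in all 6 fits that left out a mouse, and the AP-1 member *Fosl1* (1.35), lost without mouse 3 of LPS Itgb1 fl/fl (adjusted p = 0.0734). Their median was 0.26. Of 9 AT1 genes only *Vegfa*, the endothelial growth factor, was called (0.78, lost without the same mouse, adjusted p = 0.0551), and their median was 0.17.

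Which genes go with *Krt8* inside the AT2 gate was examined within mice, by comparing AT2 cells that had a *Krt8* UMI after thinning with those that had none. *Krt18*, *Krt7* and *Krt19* were each higher in the *Krt8*-detected cells in 9 of 9 mice with at least 10 cells on both sides. The median depth of the 2 sides differed in both directions over these mice, and in LPS Itgb1 iKO mouse 1 at day 7 it was 8387 UMIs per detected and 6785 per undetected cell. The *Krt8* level itself chose the cells and gets no test (mean 409.6 against 138 CPM). *Krt19* was 98.1 ± 71.1 CPM in *Krt8*-detected and 40.3 ± 12.6 CPM in undetected cells, *Krt7* 208 ± 79.4 and 129.9 ± 58.6 CPM, and *Krt18* 654 ± 122 and 458 ± 124 CPM (SD, n = 9 mice).

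The lowest, median and highest *Krt19* levels were 37.6, 82.8 and 276 CPM in detected and 24.5, 40.4 and 66.1 CPM in undetected cells, so the sides overlapped across mice while every mouse had the higher level on the detected side. The smallest step was in LPS Itgb1 fl/fl mouse 1 at day 7 (37.6 against 34.6 CPM) and the largest in LPS Itgb1 fl/fl mouse 3 at day 21 (276 against 66.1 CPM). A single cell held 27 of the 50 *Krt19* UMIs of the detected side of the latter mouse, whose level was 141 CPM without it. With the cell that held the most UMIs of the gene left out of each mouse, *Krt19* was higher on the detected side in 7 of 9 mice and lower in 2, and *Krt7* and *Krt18* were higher in 9 of 9. For *Krt7* LPS Itgb1 fl/fl mouse 1 at day 7 had 90.3 against 85.3 CPM, while LPS Itgb1 iKO mouse 3 at day 7 had 351 against 196 CPM. The log2 differences with mouse as a block were 0.45 (SE 0.0934, adjusted p = 0.011) for *Krt18*, 0.65 (SE 0.107, adjusted p = 5.62e-04) for *Krt7* and 1.10 (SE 0.161, adjusted p = 1.34e-04) for *Krt19*, where 0.223% of 6273 tested genes were called higher and 0.0478% lower. *Krt18* lost its call without LPS Itgb1 iKO mouse 2 at day 21 (adjusted p = 0.0511), and the other 2 kept theirs in all 9 such fits.

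**Figure D5:**
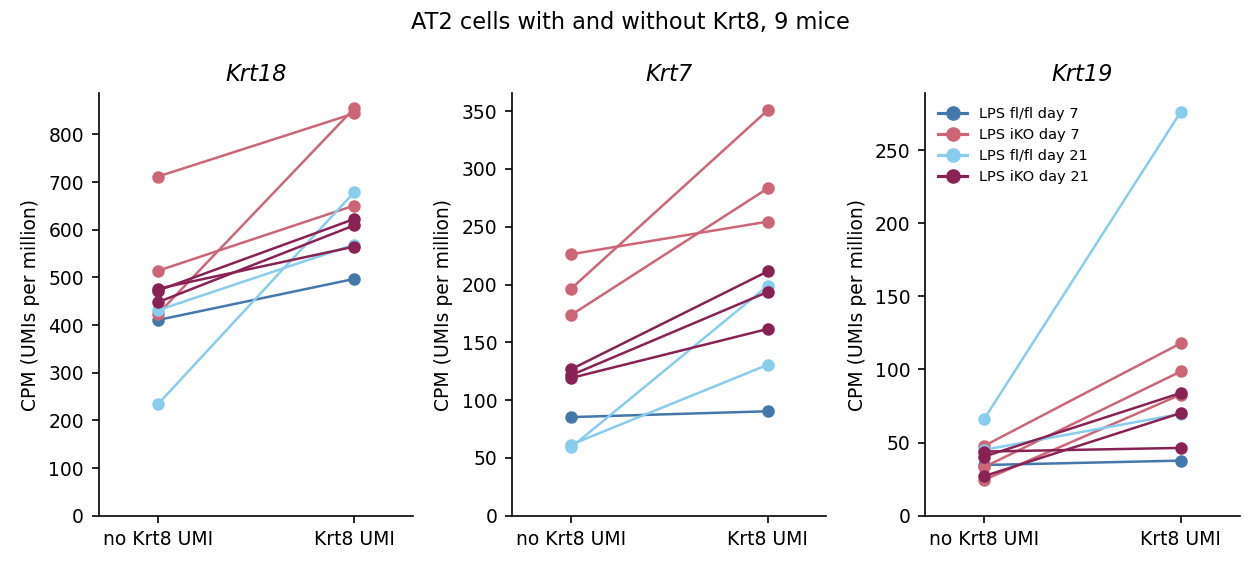
Level of *Krt18*, *Krt7* and *Krt19* (CPM) in AT2 cells without and with a *Krt8* UMI in the same mouse, one line for each of 9 mice, coloured by library. Every line goes up for all 3 genes, and the steepest for *Krt19* is an LPS Itgb1 fl/fl mouse at day 21 in which 1 cell held 27 of 50 UMIs of the detected side.

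The other genes called higher in *Krt8*-detected cells included 6 of 15 tested intermediate genes and no AT1 gene of 10, beside 0.223% of all genes tested. Both lists were chosen with earlier results of these data known. Beside the keratins, *Anxa1* (annexin A1) was higher by 0.80 on the log2 scale in 9 of 9 mice (SE 0.118, adjusted p = 0.000134), *S100a6* by 1.65 in 8 of 9, *Lgals3* by 0.82 in 7 of 9, *Sfn* (stratifin) by 0.79 in 8 of 9, and *Areg* by 0.72 and *Thbs1* (thrombospondin-1) by 0.61 in 9 of 9. *Tnfrsf12a* (0.59) and *Fosl1* (0.86), the 1 transcription factor of 10, were called too, each in 6 of the 9 fits that left out a mouse, while *Anxa1*, *S100a6*, *Lgals3* and *Areg* were called in all 9. *Sprr1a* was 3.08 higher through the single cell named above, and 0.43 without that mouse (adjusted p = 0.943). All 15 intermediate genes tested had a difference above 0, with a median of 0.41, beside 0.04 for the 10 AT1 genes and 0.00 over all tested genes.

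The genes called lower in *Krt8*-detected cells were 3, and all were lower in 9 of 9 mice. *Cxcl17*, a mucosal chemokine, differed by -0.80, *Trf* (transferrin) by -0.87 and *Lbp* (LPS-binding protein) by -0.48 on the log2 scale, with adjusted p of 0.00474, 0.00528 and 0.0389. *Scp2* (-0.35, adjusted p = 0.0609, 9 of 9 mice) and *Bex2* (-0.86, adjusted p = 0.0576, 7 of 9 mice) had the next smallest p among genes lower on that side and were not called. *Cxcl17* and *Trf* were called in all 9 fits that left out a mouse and *Lbp* in 3. No desmosome or linker gene of 12 was called, with a median of 0.11.

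Over mice, the AT2 genes whose levels ran most like *Krt8* were described by Pearson's r of log2(CPM + 10) over 13 mice, among 2562 genes at 50 CPM or more. With each library's mean subtracted, these were *Cxcl1* (r = 0.95), *Tnfrsf12a* (0.933), *Cebpd* (0.93), *Fuca1* (0.926) and *Vdac1* (0.889), and *Krt7* stood at place 158 (0.631) and *Krt18* at place 745 (0.317). The PBS library had a single such mouse, which the subtraction left without a value of its own, so it added nothing to that ranking. Without the subtraction they were *Neat1* (0.871), *Hist1h1e* (0.869), *Ptp4a1* (0.856), *Zcrb1* (0.855) and *Slpi* (0.853), with *Krt7* at rank 19 (0.795) and *Krt18* at rank 49 (0.725). The mice of a library share its processing and the number of AT2 cells differs from 9 to 260 between them. *Krt19* was under 50 CPM in the mean and was not ranked. In LPS Itgb1 fl/fl mouse 3 at day 7, 1 of 17 AT2 cells held 34 of 41 *Cxcl1* UMIs and 17 of 65 *Krt8* UMIs. Without that cell the mouse held *Cxcl1* at 36.4 CPM in place of 195 and *Krt8* at 250 CPM in place of 309. The ranking was not repeated without it.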

How the data were processed

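Droplet 5′ RNA-seq of sorted lung cells was made from 5 libraries, 1 per condition. The authors aligned reads to mm10 and deposited UMI counts per gene and hashtag in each barcode, without normalization. The submitters' processing notes name Cell Ranger 3.1 and Seurat 4.1.0. The free RNA correction and doublet removal of the study's methods are not in the deposited counts. Gene lists and the 4 keratins were chosen with earlier results of these data known.

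Cells were filtered and gated as given in the report. A hashtag was in use at 1% or more of a library's tag counts and was carried at 4 times its background or more. Cells with more than 1 hashtag were left out of values per mouse, and no other doublet removal was made. Counts were summed per mouse and class (at least 5 cells, at least 10 per side for the *Krt8* split) and tested in R 4.3.3 with edgeR 4.0.16 (TMM, filterByExpr, quasi-likelihood test, Benjamini-Hochberg over all genes tested) after a test on simulated data. The day 7 fits held the mice of 3 libraries, the day 21 fit those of 2. Mouse was a block where classes or sides came from the same mouse. Within day 7 the PBS mouse was alone in its group and added nothing to the estimate of spread. It entered the low-count filter and the normalization. DESeq2 1.42.0, its size factors, no filter on low counts, other gates and leaving out each mouse were the alternatives. Python 3.11.15 served for shares, intervals and exact permutation tests (scipy 1.17.1, numpy 2.4.6, pandas 2.3.3) and matplotlib 3.10.9 for plots. P-values measure the spread between mice of a library.

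The genes named are the 4 keratins, of each list the called genes (at most the 5 with the smallest p), the 10 genes higher and 5 lower with the smallest p in *Krt8*-detected cells, and the 5 most like *Krt8*. The exceptions, chosen after their values were seen, are *Cxcl1* among the outlying values and *Sprr1a* where 1 cell carried it. The lists were other keratins, desmosome and keratin linkers, other intermediate filaments, alveolar intermediate genes, AT1 genes and transcription factors linked to simple keratins.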

Additional observations from a re-analysis of the deposited data

Results flagged for a closer look

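The difference of genotypes at day 21 less that at day 7 was called for 6 of 50 list genes tested in AT2 cells, by edgeR's quasi-likelihood test, beside 0.616% of 6329 genes tested. The lists were chosen with earlier results of these data known. The difference between days was positive for *Hbegf* (1.40, SE 0.329, adjusted p = 0.0388) and *Atf3* (1.36, SE 0.235, adjusted p = 0.00223), whose rise in Itgb1 iKO was called at day 21. It was negative for *S100a6* (-3.68, SE 0.502, adjusted p = 6.07e-05), *Lgals3* (-2.22, SE 0.313, adjusted p = 0.000101), *Cldn4* (-6.03, SE 1.32, adjusted p = 0.0232) and *Ager* (-0.88, SE 0.200, adjusted p = 0.0308), which were higher in Itgb1 iKO at day 7. *S100a6* and *Lgals3* were called in opposite directions at the 2 days. The sort differed between the days, and single cells held 95% of the *S100a6* UMIs of mouse 1 and 44.3% of those of mouse 3 of LPS Itgb1 fl/fl at day 21, 89.7% of those of mouse 1 of LPS Itgb1 fl/fl at day 7 and 84% of the *Cldn4* UMIs of mouse 3 of LPS Itgb1 iKO at day 7. With the highest cell of each mouse left out, *S100a6* was 8.41, 71.1 and 148 CPM in LPS Itgb1 fl/fl and 31.6, 46.7 and 19.1 CPM in LPS Itgb1 iKO at day 21, where the genotypes then overlapped, and 5.99, 6.77 and 4.95 CPM and 122.7, 62.3 and 47.5 CPM at day 7, where they did not. *Cldn4* was then 0 CPM in all 3 LPS Itgb1 fl/fl mice at day 7 and 15.6, 67.3 and 8.23 CPM in LPS Itgb1 iKO mice. The difference between days was not tested again on these levels.

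In the comparison of *Krt8*-detected with undetected AT2 cells, mouse 2 of LPS Itgb1 fl/fl at day 21 lay far from the other 8 mice for 3 of 20 genes examined. Its log2 ratio was 3.30 for *Areg* (the others 0.114 to 0.779), 2.41 for *Thbs1* (0.241 to 0.79) and 5.13 for *Cxcl1* (-0.552 to 1.24). In that mouse 1 cell held 34 of 39 *Cxcl1* UMIs and another 31 of 47 *Thbs1* UMIs, a cell that also held 12 *Krt8* and 20 *Krt18* UMIs. The limit is Dixon's 95% critical value, which by its definition about 1 in 20 sets of normally distributed values pass, and the genes share the same mice.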

How the results depend on the processing

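The *Krt7* difference at day 21 kept its direction under 14 alternatives and its call in 12 of 13 with a test, and *Krt19* and *Krt8* kept theirs between ciliated and AT2 cells under 5. The gate at 2% or 10% *Sftpc* changed no keratin's call at either day. For the genotype at day 7, 97 called genes became 37 with DESeq2, 149 with no filter on low counts and 49 with hashtags at 8 times background, and *Krt7* was 1.12 (adjusted p = 0.139) with DESeq2 and 0.86 (adjusted p = 0.222) with that hashtag limit. For LPS against PBS, 12 called genes became 20 with no filter and 3 with that hashtag limit, and the direction turned for *Krt18* with no filter (0.0517), for *Krt8* with that hashtag limit (-0.0606), and for *Krt8* (-0.24) and *Krt19* (-0.0140) when PBS mice with 2 to 4 AT2 cells were added, a choice made after seeing the data. At day 21, 304 called genes became 464 with no filter, *Krt8* lost its call with DESeq2 (0.46, adjusted p = 0.141) and with the hashtag limit (0.46, adjusted p = 0.114), *Krt18* was called with no filter (0.39, adjusted p = 0.0158), and *Krt19* was called with no filter (-0.72, adjusted p = 0.00507) and with the hashtag limit (-1.08, adjusted p = 0.0151). For the change between days, 39 called genes became 93 with no filter and *Krt19* was called there (-1.60, adjusted p = 0.00254). The 96 endothelial genes called between genotypes at day 21 became 50 with DESeq2. Between ciliated and AT2 cells *Krt18* was 0.23 with 8 or more marker UMIs, 0.0859 with DESeq2 and 0.43 in LPS Itgb1 fl/fl day 7 mice, and *Krt7* was called with 8 marker UMIs (0.59, adjusted p = 0.0202) and in those mice (0.86, adjusted p = 0.000834). The cause of these changes was not tested.

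For the *Krt8* split, mouse was the replicate block, which pairs the cells of the same animal. With no replicate block 0 genes were called by edgeR in place of 17, and *Krt18* (0.47, adjusted p = 0.973), *Krt7* (0.70, adjusted p = 0.973) and *Krt19* (1.12, adjusted p = 0.575) kept their size. The count was 40 with 4000 UMIs, 287 with detection on all UMIs, 44 with no filter, 5 in Itgb1 fl/fl mice and 3 in day 7 mice. *Krt18* was 0.39 (adjusted p = 0.0697) in Itgb1 iKO mice. *Krt18*, *Krt7* and *Krt19* were 0.64, 1.04 and 1.38 in Itgb1 fl/fl mice and 0.40, 0.46 and 1.16 in day 7 mice, none called in these 3 and 4 mice. No paired analysis was possible for the genotypes because equal mouse numbers mark only the order of hashtags. The share of AT2 cells with *Krt18* at day 7 turned to -3.90 percentage points without thinning and that of *Krt19* at day 21 to 0.0127 at 4000 UMIs, the co-detection difference at day 7 to 0.140 at 4000 UMIs, and the type ratio at day 7 to -0.0998 for *Krt8* over *Krt18*.

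With each mouse left out, the called genes ranged over 44 to 126 (genotype, day 7), 6 to 14 (LPS against PBS), 14 to 51 (change between days), 70 to 324 and 38 to 152 (endothelial, days 7 and 21). Log2 differences ranged over 0.92 to 1.56 for *Krt7* at day 7, over 0.39 to 0.53 for *Krt8*, 0.16 to 0.60 for *Krt18*, 0.58 to 0.81 for *Krt7* and -1.09 to 0.23 for *Krt19* at day 21, over -0.14 to 0.26 for *Krt8* and -1.95 to -0.67 for *Krt19* between days, over -0.00336 to 0.73 for endothelial *Krt7* at day 7 and over 0.38 to 0.49 for *Krt18* in the split. The *Krt19* share at day 21 ranged over -5.15 to 1.29 percentage points. Depth limits the AT2 values most in PBS Itgb1 iKO, where 3 UMIs correspond to 11.7 CPM.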

Other observations

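The PBS Itgb1 iKO mice 1 and 2 had 4 and 2 AT2 cells and entered no main comparison. Their *Krt8* was 440.4 and 448 CPM, *Krt18* 751 and 418 CPM, *Krt7* 207 and 89.6 CPM and *Krt19* 181 and 29.9 CPM, so the *Krt8* of both lay above all 3 LPS Itgb1 iKO mice and that of PBS mouse 3 below them.

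Keratin UMIs were uneven over AT2 cells. After thinning, the tenth of cells with the most UMIs held 42.9% of the *Krt8* and 38.6% of the *Krt18* UMIs of LPS Itgb1 iKO at day 7, and the highest single cells held 6 and 9 UMIs. The variance of *Krt18* counts over cells was 1.75 to 2.07 times their mean in the 4 LPS libraries and 1.19 times in the PBS library, and that of *Krt8* 1.16 to 1.63 times. Cells with more than 1 hashtag numbered 18, 1, 15, 9 and 37 of the AT2 cells in the order of the libraries given above, and without them *Krt8* was 232 CPM in LPS Itgb1 fl/fl at day 7 against 235 CPM with them.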
